A study of Mus musculus with 4 samples.

Results

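The collagen chain genes were taken as every gene of the array annotation whose symbol is Col, a number, the letter a and a number. The rule used only gene symbols, and it found 42 of the 19505 named genes measured. Each of the 42 had 1 probe set. Expression was measured in epididymal adipose tissue, a fat depot of male mice, on 4 one-colour Clariom S Mouse arrays, with 1 array for each combination of injection and surgery. Injection was DMSO, the vehicle, or GW4869, an inhibitor of neutral sphingomyelinase used to block the release of extracellular vesicles. Surgery was either sham or synergist ablation, in which removal of cooperating muscles puts a mechanical overload on the one that remains. The groups are called vehicle sham and vehicle overload, and GW4869 sham and GW4869 overload. The sources used here do not give strain, age, dose, time after surgery, or whether an array holds 1 mouse or a pool. With 1 array per group no difference has a replicate check, no p-value was computed, and every value describes these 4 arrays only.

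Collagens are secreted or membrane-bound proteins whose chains wind around each other in a triple helix. Fibrillar collagens, chiefly types I, III and V, form the tensile fibres of connective tissue. Type IV collagen forms the sheet-like network of basement membranes, which surround every adipocyte and line blood vessels. Type VI collagen forms beaded filaments between cells and fibres and is abundant in adipose tissue, where fibroblast-like stromal cells and adipocytes make it. The other chains decorate fibrils, span membranes or carry heparan sulfate or chondroitin sulfate.

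The sequences before the annotated starts of Col1a2, Col3a1 and Col6a1 are shown because these chains of types I, III and VI moved together between the sham arrays. Each run is 150 bases, read 5′ to 3′ on the strand of the gene and ending just before the start site, from RefSeq's promoter table for mouse build GRCm38.p6. Capitals mark a match, on either strand, to the CCAAT box (searched as CCAAT), to the box bound by Sp1-like factors (searched as GGGCGG) or to the box that places a start site (searched as TATAAA).
Col1a2 at chr6:4505468-4505617, plus strand: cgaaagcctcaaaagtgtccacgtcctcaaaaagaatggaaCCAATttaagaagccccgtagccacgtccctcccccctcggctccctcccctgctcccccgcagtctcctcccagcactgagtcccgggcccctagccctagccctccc
Col3a1 at chr1:45311388-45311537, plus strand: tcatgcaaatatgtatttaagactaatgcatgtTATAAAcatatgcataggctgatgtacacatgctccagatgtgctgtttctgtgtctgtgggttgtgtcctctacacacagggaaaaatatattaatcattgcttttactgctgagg
Col6a1 at chr10:76726045-76726194, minus strand: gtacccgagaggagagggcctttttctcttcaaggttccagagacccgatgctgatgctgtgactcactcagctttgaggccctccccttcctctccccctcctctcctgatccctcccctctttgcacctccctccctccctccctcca
The 3 stretches share no match: Col1a2 has 1 CCAAT, Col3a1 has 1 TATAAA and Col6a1 has none of the 3 motifs. Col4a1 and Col4a2, the main chains of type IV collagen, start 21 bases apart on opposite strands, and 30 bases across both starts are printed on the plus strand to show this shared start region.
Col4a1 and Col4a2 at chr8:11312801-11312830, plus strand: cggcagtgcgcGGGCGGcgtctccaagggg
This stretch holds 1 GGGCGG. Over the table's windows, from 250 bases before to 50 after a start, 34 of the 42 chains were matched, with 37 windows. GGGCGG was present in 22 of these 37 windows (59.5%) and in 35.7% of all 32851 windows. For CCAAT these shares were 32.4% and 37.4%. For TATAAA they were 13.5% and 13.6%. The windows of Col4a1 and Col4a2 share 78 bases, so the GGGCGG printed for them counts in both. A match describes letters and does not show that a factor binds there.

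Values are log2 expression as deposited, so a difference of 1 is a doubling on that scale, which runs up to 19.93. Levels are compared only between arrays for the same gene. A floor of 4.67, below which 40% of gene means lay, left 11703 genes, among them 23 of the 42 chains. A stricter floor was the highest per-array 95th percentile of the 23 antigenomic background probe sets, log2 6.40, and 14 chains had a mean above it. A gene was counted as higher or lower when 2 arrays differed by at least 1.5-fold, 0.58 on the log2 scale. Transcripts of sperm and of the reproductive tract separated the arrays. Sperm and testis markers had a median level of 14.41 on vehicle sham and between 3.05 and 4.38 on the others, and epididymal epithelium markers had 13.68 on GW4869 overload and between 3.35 and 3.81 on the others. Vehicle sham also carried some epididymal transcripts, with Adam7 at 14.64 and Lcn5 at 14.22. Distal tract markers, a list assembled from these data, had 11.16 and 11.42 on the sham arrays of vehicle and GW4869, and 3.50 and 4.26 in overload. All 14 measured adipocyte markers lay above the floor on every array. The part of tract RNA in the collagen differences was not tested.

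Collagen chains were most often highest on the GW4869 sham array and lowest on the vehicle sham array. Of the 23 chains above the floor, 13 had their highest value on GW4869 sham, against 23.4% of all genes above the floor, and 16 had their lowest on vehicle sham, against 45.9%. Both held for 11 of the 23, against 12.9% of all genes. The 11 are Col1a1, Col1a2, Col3a1, Col5a3, Col6a1, Col6a3, Col6a5, Col6a6, Col13a1, Col14a1 and Col18a1, so they include 4 of the 6 fibrillar chains and 4 of the 5 type VI chains above the floor. Of the rest, 7 were highest on vehicle overload (30.1% of all genes), Col15a1 and Col9a3 on vehicle sham (19.8%) and Col28a1 on GW4869 overload (26.7%). No chain was lowest on vehicle overload (18.9%) or GW4869 sham (13.0%), and 7 were lowest on GW4869 overload (22.3%).

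**Figure D1:**
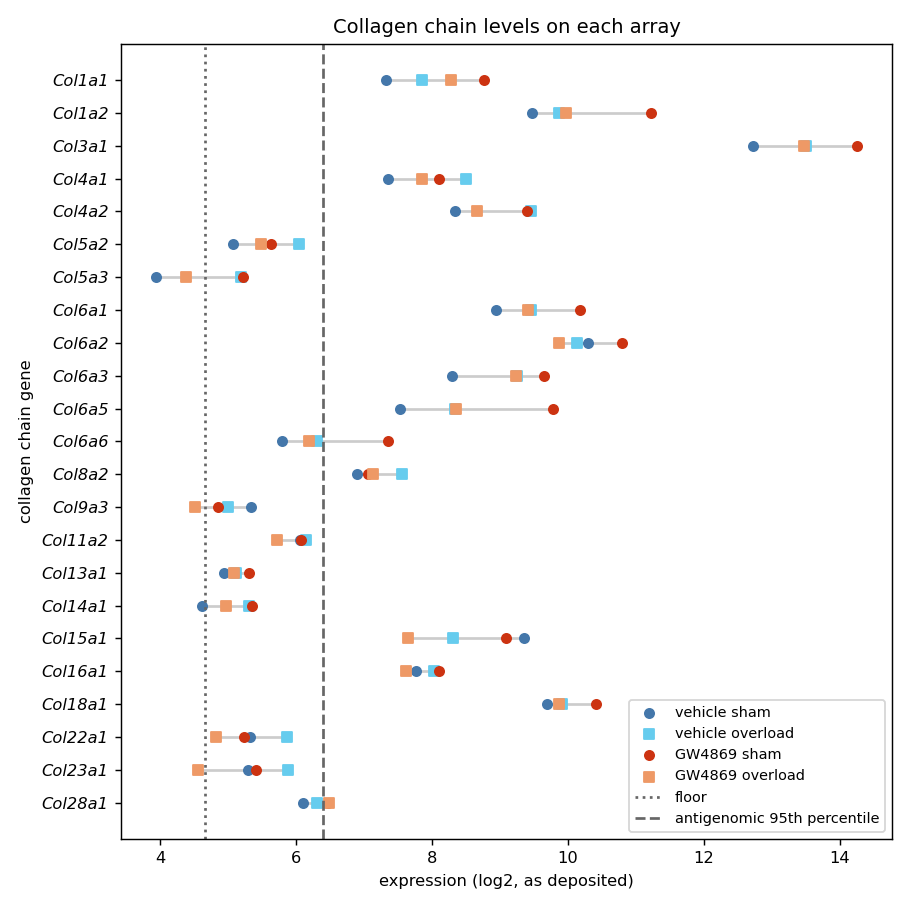
Log2 expression (horizontal axis, as deposited) of the 23 collagen chains above the floor, 1 row per gene, with 1 point for each of the 4 arrays and a grey line over their range; the dotted line is the floor and the dashed line the antigenomic 95th percentile. GW4869 sham is the rightmost point for 13 chains and vehicle sham the leftmost for 16.

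GW4869 against vehicle in sham mice showed the largest collagen differences of the 4 comparisons, and on the deposited scale all those past 1.5-fold were towards GW4869. Of the 23 chains above the floor 12 were at least 1.5-fold higher and 0 lower, where 28.9% of all genes were higher and 14.4% lower. The median chain differed by 0.72 and the median gene by 0.27. Among the 14 chains above the stricter floor, 10 were higher and the median was 1.15. With each array centred on its median adipocyte marker, the median over the 23 chains was 0.22 and the median gene -0.23. In that setting Col1a1, Col1a2, Col3a1, Col5a3, Col6a1, Col6a3, Col6a5 and Col6a6 stayed at least 1.5-fold higher (10.1% of all genes). Of the 23 chains 3 were lower (28.7% of all genes). The chain median minus the median gene was 0.45 on both scales. This centring shifts all genes of an array alike, so it cannot change that value.

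Type I collagen is the main fibre of connective tissue, and its chains were both higher. Col1a1, its alpha 1 chain, stood at 7.33 on vehicle sham, 7.86 on vehicle overload, 8.76 on GW4869 sham and 8.28 on GW4869 overload, a difference of 1.44 between the sham arrays. Col1a2, the alpha 2 chain, stood at 9.47, 9.87, 11.23 and 9.98 in the same order, a difference of 1.75. For Col1a2 the GW4869 sham array was the only one above 10, and the other 3 lay within 1.5-fold of each other.

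Col3a1, the chain of type III collagen, which forms thin fibres with type I, was likewise lowest on vehicle sham and highest on GW4869 sham. Its values were 12.73 on vehicle sham, 13.50 on vehicle overload, 14.26 on GW4869 sham and 13.48 on GW4869 overload, and the sham arrays differed by 1.53. The overload arrays differed by 0.02 in size. Chains of type V, which sets fibril diameter, read within the range of the antigenomic probes. Col5a2 had 5.07, 6.05, 5.64 and 5.49 in the same order, with 0.56 between the sham arrays. Col5a3 had 3.94, 5.19, 5.23 and 4.38, where the vehicle sham and GW4869 overload readings are under the floor. With the floor in their place its sham difference is 0.56, short of the threshold.

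Type VI collagen held the chain with the largest difference. Col6a5, an alternative chain that can take the place of alpha 3 in the type VI trimer, stood at 7.53 on vehicle sham, 8.34 on vehicle overload, 9.78 on GW4869 sham and 8.35 on GW4869 overload. Its difference between the sham arrays was 2.25, and its overload arrays were 0.01 apart. Col6a6, a related alternative chain, stood at 5.80, 6.32, 7.35 and 6.20 in the same order, a sham difference of 1.55, with the GW4869 sham reading alone above the antigenomic range. The third gene of this kind, Col6a4, had a mean under the floor.

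The standard type VI chains moved less. Col6a1 stood at 8.94 on vehicle sham, 9.46 on vehicle overload, 10.19 on GW4869 sham and 9.42 on GW4869 overload, 1.24 higher in GW4869 sham than in vehicle sham. Col6a3, whose cleaved end is the peptide endotrophin, stood at 8.30, 9.25, 9.65 and 9.24, a sham difference of 1.35. Col6a2 stood at 10.29, 10.13, 10.80 and 9.87, and its sham difference of 0.51 was below the threshold. Col6a1 and Col6a2, partners in 1 protein whose genes are neighbours on chromosome 10 in RefSeq's gene table, differed from each other in the size of this difference.

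Col4a1 and Col4a2 had a different order of arrays, with the highest value on vehicle overload. Col4a1 stood at 7.35 on vehicle sham, 8.51 on vehicle overload, 8.10 on GW4869 sham and 7.86 on GW4869 overload. Col4a2 stood at 8.35, 9.46, 9.41 and 8.66. Between the sham arrays they were 0.75 and 1.06 higher with GW4869. The other 4 type IV chains, which build specialised basement membranes such as that of the kidney glomerulus, had means under the floor.

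The multiplexins Col15a1 and Col18a1, which sit in basement membrane zones, parted ways. Col18a1, the source of the fragment endostatin, stood at 9.70 on vehicle sham, 9.92 on vehicle overload, 10.42 on GW4869 sham and 9.88 on GW4869 overload, with 0.72 between the sham arrays. Col15a1 stood at 9.35, 8.30, 9.09 and 7.65, high on both sham arrays and low on both overload arrays, and its sham arrays differed by -0.26. This is the direction of the distal tract markers and of the smooth muscle markers. All 10 smooth muscle markers were lower in overload under vehicle and under GW4869 (16.9% and 15.3% of all genes). Their list medians were 12.54 on vehicle sham, 7.57 on vehicle overload, 12.30 on GW4869 sham and 9.24 on GW4869 overload. The part of these lists in the Col15a1 difference was not tested. The smooth muscle and distal tract lists had median sham differences of -0.04 and 0.01. Of the 10 smooth muscle markers 2 were higher and 1 lower with GW4869 in sham mice (28.9% and 14.4% of all genes). The distal tract list was assembled from these data, so its like level on both sham arrays is not a separate observation.

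Col16a1, a fibril-associated chain, stood at 7.77 on vehicle sham, 8.03 on vehicle overload, 8.10 on GW4869 sham and 7.62 on GW4869 overload, and no comparison passed 1.5-fold. Col8a2, a chain of the short network collagen VIII, stood at 6.90, 7.57, 7.07 and 7.14, with only the overload difference under vehicle, 0.67, past the threshold.

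**Figure D2:**
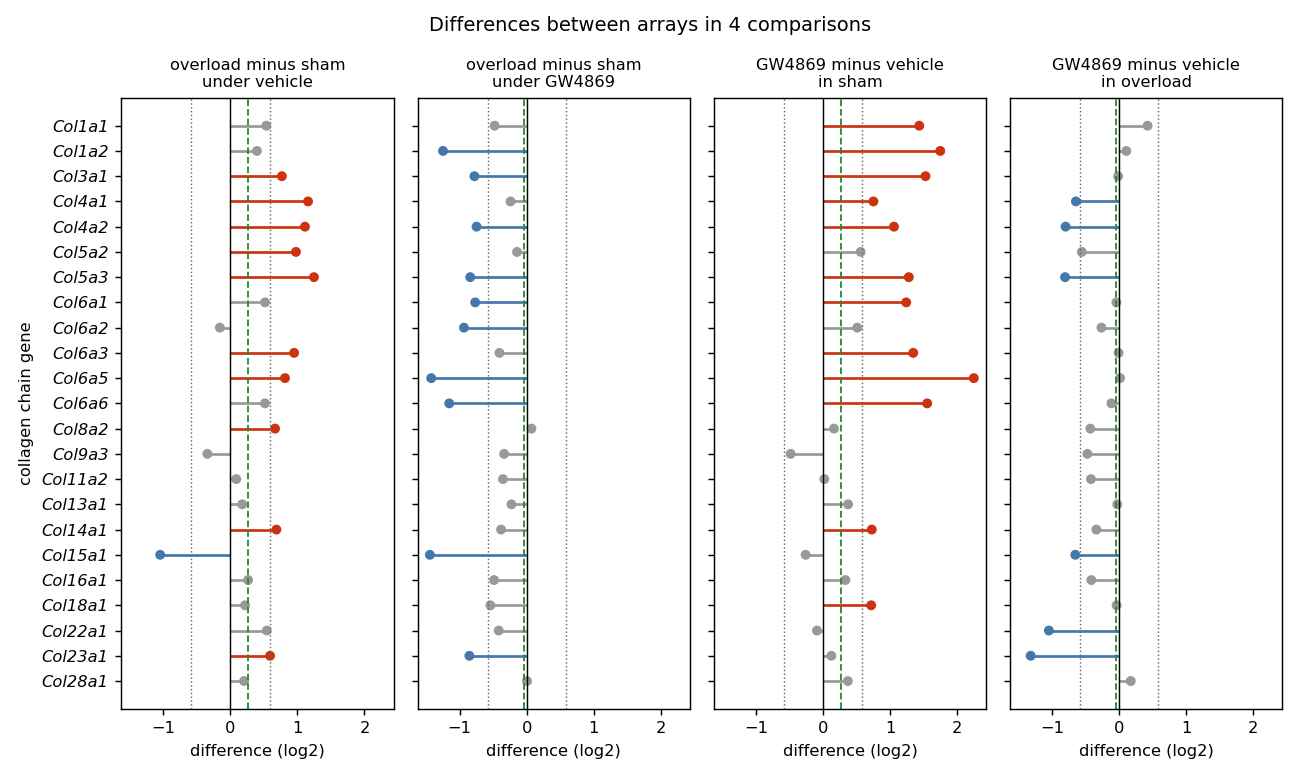
Log2 difference (horizontal axis) of each of the 23 chains above the floor in the 4 comparisons, 1 panel each; red points are at least 1.5-fold higher, blue points at least 1.5-fold lower, dotted lines mark 1.5-fold and the green dashed line is the median gene. In sham mice 12 chains are higher with GW4869, while in overloaded mice 0 are higher and 6 lower.

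GW4869 against vehicle in overloaded mice showed no chain higher and 6 of 23 lower, where 18.4% of all genes were higher and 18.8% lower. The median chain differed by -0.34 and the median gene by -0.04. Over the 14 chains above the stricter floor the median was -0.08, close to the -0.06 of all genes above it. Of these 14 chains 3 were lower and 0 higher (19.0% and 17.0% of all genes above that floor). Relative to the adipocyte markers, whose own median was -0.70, the median of the 23 chains turned to 0.36 and the median gene to 0.65. With each array centred on its median adipocyte marker they were 0.10 and 0.40. The lower chains were Col4a1 (-0.65), Col4a2 (-0.80), Col15a1 (-0.66) and, with readings within the antigenomic range, Col5a3, Col22a1 and Col23a1. Fibrillar and type VI chains above the stricter floor were close together on these arrays. Col1a1, at 0.42, was the largest of them in size, Col1a2 had 0.11, Col3a1 -0.02, and the 5 type VI chains ran from -0.27 to 0.01.

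Overload against sham under vehicle came with 10 of 23 chains at least 1.5-fold higher and 1 lower, where 30.2% of all genes were higher and 16.9% lower. The median chain was 0.53 higher and the median gene 0.26. When each array was centred on the median adipocyte marker the chain median turned to -0.10 and the median gene to -0.37. The type IV pair led the chains above the stricter floor, Col4a1 with 1.16 and Col4a2 with 1.11. Col6a3 (0.95), Col6a5 (0.81), Col3a1 (0.77) and Col8a2 (0.67) followed. Col1a1, Col1a2, Col6a1 and Col6a6, with 0.53, 0.40, 0.52 and 0.52, did not reach the threshold. Col15a1 was the single lower chain, with -1.05. Of the chains within the antigenomic range, Col5a2 (0.98), Col5a3, Col14a1 and Col23a1 were counted as higher, and Col5a3 drops to 0.52 with the floor in place of its sham reading. This comparison and that of GW4869 in sham mice both subtract the vehicle sham array, which carried testis and some epididymal transcripts.

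Overload against sham under GW4869 went the other way. Of 23 chains 0 were higher and 10 lower, where 13.4% of all genes were higher and 15.3% lower. The median chain differed by -0.49 and the median gene by -0.04. The chain median was negative in all 10 settings, between -0.76 and -0.09, though some of these settings cannot move it. The -0.09 is relative to the adipocyte markers, whose median here was -0.40, and the median gene was then 0.36. Col15a1 (-1.44), Col6a5 (-1.42), Col1a2 (-1.25) and Col6a6 (-1.16) had the largest differences, followed among chains above the stricter floor by Col6a2 (-0.94), Col3a1 (-0.78), Col6a1 (-0.77) and Col4a2 (-0.75). Col23a1 (-0.86) and Col5a3 (-0.84), within the antigenomic range, complete the 10. Col1a1, Col6a3 and Col4a1, partners of these chains, had -0.48, -0.41 and -0.24, short of the threshold. This comparison and that of GW4869 in overloaded mice both use the GW4869 overload array, which carried epididymal transcripts.

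The overload comparisons under vehicle and under GW4869 use different arrays. A positive difference under vehicle with a negative one under GW4869 was seen in 18 of 23 chains and in 36.3% of all genes. Col3a1, Col4a2, Col5a3, Col6a5 and Col23a1 passed 1.5-fold in both directions, 5 of 23 against 5.53% of all genes. Subtracting the difference under vehicle from that under GW4869 gave a median of -1.07 over the chains and -0.27 over all genes, with 18 of 23 chains past 1.5-fold lower (36.3% of all genes) and 0 higher (21.5%). Col15a1 was lower in overload under both injections.

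**Figure D3:**
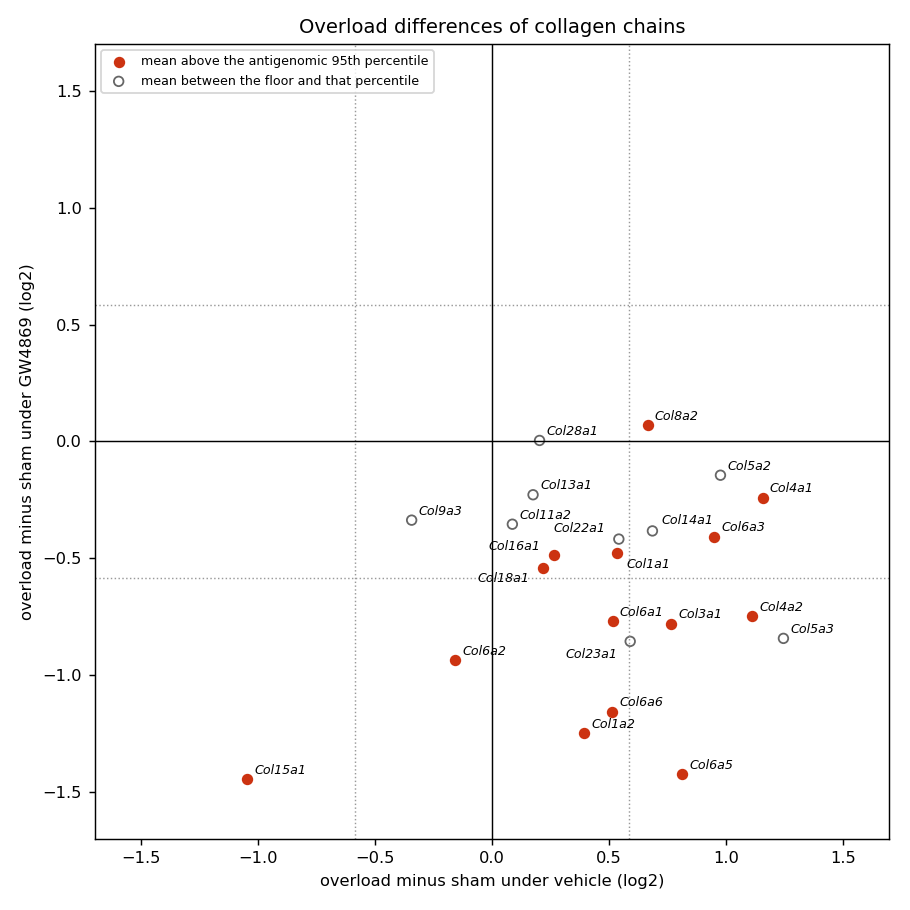
Overload difference under vehicle (horizontal axis, log2) against that under GW4869 (vertical axis, log2) for the 23 chains above the floor; filled points have a mean above the antigenomic 95th percentile, and dotted lines mark 1.5-fold. The lower right quadrant holds 18 chains, and Col15a1 lies at -1.05 and -1.44.

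Vehicle overload and GW4869 sham are the arrays without high sperm or epididymal epithelium markers, and they were set side by side after the values were seen. They differ in both injection and surgery, and GW4869 sham carried the distal tract and smooth muscle lists at 7.62 and 3.78 above vehicle overload. GW4869 sham was at least 1.5-fold higher for 8 of 23 chains and lower for 1, where 14.9% of all genes were higher and 11.1% lower. The 8 were Col6a5 (1.44), Col1a2 (1.35), Col6a6 (1.04), Col1a1 (0.90), Col15a1 (0.79), Col3a1 (0.76), Col6a1 (0.73) and Col6a2 (0.67). Col22a1 (-0.63), within the antigenomic range, was the lower one, and Col4a1 and Col4a2 had -0.41 and -0.05.

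The remaining chains gave little signal. Col11a2, Col13a1, Col14a1, Col22a1, Col23a1 and Col9a3 stayed within the antigenomic range on all 4 arrays, as did Col5a2 and Col5a3. Col22a1, of muscle and tendon junctions, read 5.32 on vehicle sham, 5.87 on vehicle overload, 5.23 on GW4869 sham and 4.82 on GW4869 overload. Col23a1, a membrane-spanning chain, read 5.29, 5.88, 5.41 and 4.56, the last under the floor. Col28a1 had values from 6.10 to 6.48 and passed the threshold in no comparison. Of the 19 chains with means under the floor, 13 were under it on every array, among them Col2a1 of cartilage, Col10a1 of the growth plate and Col17a1 of skin hemidesmosomes. Col4a4, Col4a5, Col5a1, Col6a4, Col9a2 and Col20a1 read above it on 1 array or more, and the highest reading was 5.44. Col7a1 and Col12a1 are not analysed here.

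The enzymes that hydroxylate and fold collagen in the endoplasmic reticulum had medians of the same sign as the chains in all 4 comparisons. The median gene had these signs too, with 0.27 for GW4869 in sham mice and -0.04 in overloaded mice. It had 0.26 for overload under vehicle and -0.04 under GW4869. Of 16 members above the floor 8 were higher with GW4869 in sham mice and 0 lower (28.9% and 14.4% of all genes), with a median of 0.54. Plod2, a lysyl hydroxylase, was 1.67 higher, P4ha1, a catalytic subunit of prolyl hydroxylase, was 1.14 higher, and Creb3l1, a transcription factor that drives collagen secretion genes, was 1.54 higher. P4ha2, another catalytic subunit, stood at 7.02 on vehicle sham, 7.42 on vehicle overload, 8.52 on GW4869 sham and 6.99 on GW4869 overload. Under GW4869, overload came with 7 lower and 1 higher (15.3% and 13.4% of all genes) and a median of -0.54. P4ha2 (-1.54), P3h4 (-1.34), Serpinh1 (-1.19), the collagen chaperone, and Creb3l1 (-1.03) had the largest differences. Overload under vehicle had a median of 0.29 with 3 higher, Plod2 (1.28), P4ha1 (1.15) and Plod1 (0.69), and 0 lower, a smaller share higher than the 30.2% of all genes (16.9% were lower). With GW4869 in overloaded mice 2 were higher and 3 lower, no larger shares than the 18.4% and 18.8% of all genes. Ppib (1.08) and P4hb (0.78), general folding factors of secretory cells, were the higher ones, and P3h4 (-0.85) and Serpinh1 (-0.73) were among the lower ones.

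Genes that process and crosslink collagen outside the cell had a median of 1.03 for GW4869 in sham mice, with 7 of 10 higher and 0 lower (28.9% and 14.4% of all genes). Bmp1, which cuts off the C-terminal propeptide, was 1.83 higher, Pcolce, its enhancer, 1.26, Loxl1, a lysyl oxidase, 1.29, and the transglutaminase Tgm2 1.10. In overload under GW4869 5 of 10 were lower and 0 higher (15.3% and 13.4% of all genes), with a median of -0.57. In overload under vehicle 3 were higher, close to the 30.2% of all genes, and 0 lower (16.9%), with a median of 0.35. In overloaded mice GW4869 came with 4 higher and 2 lower (18.4% and 18.8% of all genes).

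Collagen receptors had a median of 0.82 for GW4869 in sham mice, with 5 of 7 higher and 0 lower (28.9% and 14.4% of all genes). Itga11, an integrin chain that binds fibrillar collagen, was 1.24 higher and Mrc2, which takes up collagen for breakdown, 1.06. In overload under vehicle the median was 0.38, with 2 higher and 1 lower, shares near the 30.2% and 16.9% of all genes. Under GW4869 it was -0.61, with 0 higher and 4 lower (13.4% and 15.3% of all genes). Itga2, an integrin chain of epithelia and platelets, had -2.60 in the first and -2.47 in the second, the direction of the distal tract list.

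Collagen-degrading proteases and their inhibitors had the highest median of the matrix lists for GW4869 in sham mice, 1.48, with 7 of 8 higher and 0 lower (28.9% and 14.4% of all genes). Mmp2, a gelatinase, stood at 9.54 on vehicle sham, 11.13 on vehicle overload, 11.48 on GW4869 sham and 10.90 on GW4869 overload. Mmp14, which activates Mmp2, was 1.89 higher between the sham arrays, and Ctsk, a collagen-cleaving cathepsin, 1.85. Timp1, an inhibitor of these proteases, did not follow the collagens. It read 3.79, 3.29, 5.98 and 9.64 in the same order, with the first 2 under the floor and the third within the antigenomic range, so it was above the antigenomic range on GW4869 overload alone. In overload under vehicle the list median was 0.30, with 3 higher and 0 lower (30.2% and 16.9% of all genes). In overload under GW4869 it was -0.58, with 1 higher and 4 lower (13.4% and 15.3%), and with GW4869 in overloaded mice -0.17, with 2 higher and 1 lower (18.4% and 18.8%).

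Proteoglycans and glycoproteins bound to fibrils had 9 of 15 members higher and 0 lower with GW4869 in sham mice (28.9% and 14.4% of all genes), with a median of 0.83. Lum, which spaces fibrils, was 2.02 higher, Eln, the elastic fibre protein, 1.18 and Fn1, fibronectin, 1.06. In overload under GW4869 7 were lower and 1 higher (15.3% and 13.4% of all genes), with a median of -0.56, led by Fmod (-1.57), Aspn (-1.52) and Prelp (-1.36). The median for overload under vehicle was -0.04, with 4 higher and 2 lower, shares near the 30.2% and 16.9% of all genes. Lum was 1.68 higher there.

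Basement membrane partners, laminins and nidogens among them, had a median of 0.60 for overload under vehicle, with 7 of 12 higher and 0 lower (30.2% and 16.9% of all genes). For overload under GW4869 the median was -0.58, with 1 higher and 6 lower (13.4% and 15.3%). For GW4869 in sham mice it was 0.32, with 4 higher and 0 lower (28.9% and 14.4%), and in overloaded mice -0.75, with 1 higher and 7 lower (18.4% and 18.8%). Col4a1 and Col4a2 had median differences of 1.13, -0.49, 0.91 and -0.72 in these comparisons. Lamb1, a laminin beta chain, was 1.11 higher in overload under vehicle, and Lamc1, the common gamma chain, had -1.20 in overload under GW4869. Lama3 of epithelia was 1.44 higher there, on the array rich in epididymal transcripts.

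The TGF-beta pathway, the main inducer of collagen genes in stromal cells, had 8 of 13 members higher and 0 lower with GW4869 in sham mice (28.9% and 14.4% of all genes), with a median of 0.86. The ligands Tgfb2, Tgfb1 and Tgfb3 were 1.33, 1.32 and 1.21 higher, and Tgfbi, a target gene that encodes a collagen-binding protein, was 1.35 higher. In overload under vehicle 6 were higher and 0 lower (30.2% and 16.9% of all genes), with a median of 0.52. Under GW4869 0 were higher and 4 lower (13.4% and 15.3%), with a median of -0.47 and Tgfb3 at -1.13. In overloaded mice 1 was higher with GW4869 and 0 lower (18.4% and 18.8%).

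**Figure D4:**
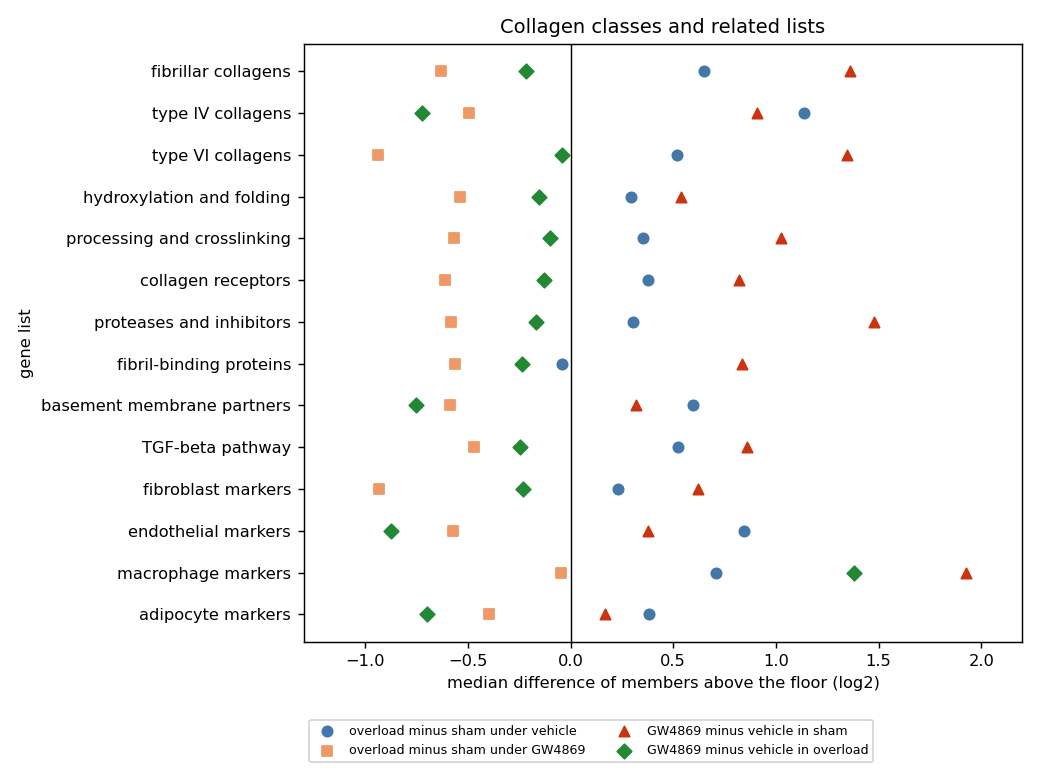
Median log2 difference (horizontal axis) of the members above the floor of 3 collagen classes, 7 related gene lists and 4 cell marker lists, with 1 symbol for each of the 4 comparisons. GW4869 in sham mice lies to the right for fibrillar (1.36) and type VI (1.35) collagens. Of the lists drawn, the macrophage list alone lies far to the right for GW4869 in overloaded mice (1.38). Lists not drawn also had high medians there, smooth muscle 1.46, sperm and testis 1.42 and epididymal epithelium 11.12.

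Markers of cells that make or hold collagen moved with it in part. In bulk tissue more cells of a type and more RNA per cell cannot be told apart. Fibroblast and progenitor markers above the floor had median levels of 9.66 on vehicle sham, 9.96 on vehicle overload, 10.63 on GW4869 sham and 9.11 on GW4869 overload, and of 10 measured markers only Twist2 was under the floor. With GW4869 in sham mice 5 of 9 were higher and 0 lower (28.9% and 14.4% of all genes), with a median of 0.62. In overload under GW4869 0 were higher and 6 lower (13.4% and 15.3%), with a median of -0.93. Endothelial markers had 9.72, 10.87, 10.20 and 9.76, highest on vehicle overload like Col4a1 and Col4a2. In overload under vehicle 6 of 9 were higher (30.2% of all genes), with a median of 0.85. With GW4869 in overloaded mice 6 of 9 were lower (18.8%), with a median of -0.88. Macrophage markers had 8.55, 9.50, 10.81 and 11.65, and with GW4869 9 of 9 were higher in sham mice (28.9% of all genes), with a median of 1.92. In overloaded mice 6 of 9 were higher with GW4869 (18.4%), where no collagen chain was higher. Mesothelial markers had 8.80, 7.21, 8.99 and 10.77, with 6 of 8 higher and 2 lower with GW4869 in sham mice (28.9% and 14.4%). In overload under GW4869 their median difference was -0.56, with 3 higher and 4 lower (13.4% and 15.3%). There Krt8 and Krt18, keratins of simple epithelia, had 3.99 and 3.58 towards the array rich in epididymal transcripts, while Upk3b and Wt1 had -1.59 and -1.25. Of 8 skeletal muscle markers 4 lay above the floor, with median levels from 6.42 to 7.16. Acta1 and Ckm had -0.95 and -0.84 in overload under vehicle and -0.96 and -1.28 under GW4869. The part of each of these cell types in the collagen differences was not tested.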

How the data were processed

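The deposited values are log2 expression per probe set. The submitters' processing notes name Partek and RMA as the tools, and the sources used here give no versions, settings or genome build. Of 28846 rows, 19572 probe sets had 1 gene symbol in the platform annotation and 0 had several. For each of 19505 genes, the probe set of highest mean was used. All 42 chain symbols were checked by Entrez identifier and were the same in the RefSeq gene table. Groups came from the sample titles. Differences of log2 values were taken within 4 pairs of arrays, and chains past 1.5-fold were counted beside the same share of all genes above the floor. The number of arrays limits the precision, and no test was run, since 1 array per group leaves no error. The counting step was tested on simulated data. Every chain is accounted for. Members of other lists named for a difference are among the 4 largest of that comparison, and the largest is not always named. Members and lists were chosen with earlier results of these data known. Centring on adipocyte markers in 2 ways, all-gene centring, trend removal, other floors, a 2-fold threshold and the mean of probe sets were tried as alternatives. Python 3.11.15, pandas 2.3.3 and numpy 2.4.6 were used.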

Additional observations from a re-analysis of the deposited data

Results flagged for a closer look

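Of the 23 chains above the floor, 5 were at least 1.5-fold higher in overload under vehicle and at least 1.5-fold lower in overload under GW4869. The overload difference under GW4869 minus that under vehicle was -1.55 for Col3a1, -1.86 for Col4a2, -2.09 for Col5a3, -2.24 for Col6a5 and -1.45 for Col23a1. With 1 array per group this difference between injections was not tested. Col5a3 and Col23a1 read within the antigenomic range on all 4 arrays, and Col5a3 is short of 1.5-fold in both comparisons with the floor in place of its low readings.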

How the results depend on the processing

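No paired analysis was possible because each group has 1 array, and no array could be left out of a comparison. The collagen median was positive for GW4869 in sham mice in all 10 settings (0.22 to 1.15) and negative for overload under GW4869 in all 10 (-0.76 to -0.09). The 10 include the main setting. They also include the 2-fold threshold, which cannot move a median, and the mean of probe sets, which leaves chains with 1 probe set unchanged. Centring each array on the median adipocyte marker moved the median gene from 0.26 to -0.37 for overload under vehicle, from -0.04 to 0.27 for overload under GW4869, from 0.27 to -0.23 for GW4869 in sham mice and from -0.04 to 0.40 for GW4869 in overloaded mice. In the first of these, the share of genes higher and lower went from 30.2% and 16.9% to 6.31% and 38.2%. With that centring the collagen median was -0.10 for overload under vehicle, with 1 of 23 chains higher and 3 lower. It was 0.22 for GW4869 in sham mice, with 3 lower (28.7% of all genes) and the chains named above for that setting higher (10.1%). It was 0.10 for GW4869 in overloaded mice, with 2 higher and 2 lower (38.0% and 6.15%). In overload under GW4869 5 chains were lower (7.06%), and Col23a1 turned to -0.040 in overload under vehicle. Subtracting the adipocyte markers' median difference was chosen after seeing the data. Of 23 chains it gave 4 higher and 2 lower for overload under vehicle (12.9% and 26.7% of all genes). For overload under GW4869 4 were lower (5.57%). For GW4869 in sham mice the median was 0.55 with 1 lower (17.7%), and the median gene was 0.10. For GW4869 in overloaded mice the median was 0.36 with 9 higher and 1 lower (54.7% and 2.99%). The median gene was 0.65 there. The chain median minus the median gene was -0.30, as on the deposited scale, because this subtraction shifts all genes alike. Col4a1 turned to 0.050 and Col15a1 to 0.041 in that comparison. Trend removal gave a median of 0.40 with 1 of 23 chains lower (20.4% of all genes) for GW4869 in sham mice. With no floor that median was 0.42 with 1 of 42 chains lower (15.2% of all genes). Of the 42, 2 were lower in overload under vehicle (16.7%) and 1 was higher in overload under GW4869 (12.1%). With GW4869 in overloaded mice 3 were higher and 12 lower (15.1% and 19.4%). With the floor in place of lower readings the sham median was 0.56. Over the 14 chains above the antigenomic range 6 were higher in overload under vehicle (31.7% of all genes above that range). Their median in overload under GW4869 was -0.76. With GW4869 in overloaded mice it was -0.08, with 3 lower (19.0%), and the median gene above that range was -0.06. At 2-fold, 3 of 23 chains were higher in overload under vehicle, where 11.9% of all genes were. For GW4869 in sham mice 9 of 23 were higher (11.9%). At that threshold 4 were lower in overload under GW4869 (5.33% of all genes) and 2 with GW4869 in overloaded mice (6.54%). Centring on all genes moved no count by over 1.5 times. Nor did the mean of probe sets, which leaves the values of chains with 1 probe set unchanged. Background signal limits the 9 chains between the floors.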
